A study of Homo sapiens with 19 samples.

Results

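V5 chromatin immunoprecipitation with sequencing (ChIP-seq) was compared between C4-2 cells that carry wild-type (WT) E2F1 and C4-2 cells that carry E2F1 K185R, neither of them treated. The members are the intervals of the 2 deposited lists, chosen by list alone and not by any measured value: 15099 intervals for WT and 55681 for K185R, together 70780 of the 203381 intervals of the series. C4-2 is an established prostate cancer cell line. The label tetE2F1 names the E2F1 construct of both lines, and the cells were grown in RPMI medium with 5% charcoal-stripped serum, which is poor in androgens. In both groups the antibody was anti-V5, and no doxycycline or drug was given. Each group had 2 libraries but is represented by 1 list, so no spread between libraries can be measured and no test between the groups was possible.

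The series as a whole holds 19 libraries in 10 lists. Besides the untreated lists, V5 was mapped in both lines with doxycycline (0.25 ug/ml for 3 days), with GSK2879552 (50 uM for 24 hours), and with doxycycline followed by GSK2879552. GSK2879552 inhibits the lysine demethylase LSD1. RB was mapped in untreated C4-2 (2 libraries, 9146 intervals) and untreated VCaP (1 library, 17026 intervals), another established prostate cancer line. The names of the V5 lists carry siRNA-like words that the treatment labels do not mention, siNTC for the untreated groups and siRB for those given doxycycline. The groups are called here as the treatment labels call them. Nothing in the labels says how much tagged E2F1 the cells made without doxycycline, or whether either line is a single clone, so the intervals below are called V5 intervals. Interval lists hold no expression values, and the identity of the cells could not be checked against marker genes.

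E2F1 is a transcription factor that binds DNA together with a DP partner and drives genes of DNA replication and the cell cycle. The retinoblastoma protein RB binds the activation domain of E2F1 and keeps it from activating those genes until cyclin-dependent kinases phosphorylate RB. RB has no DNA-binding domain of the usual kind, so RB ChIP-seq largely marks places where E2F proteins or other factors hold it on chromatin. K185R puts an arginine in place of a lysine of E2F1, and arginine keeps the positive charge but cannot be acetylated or methylated as lysine is.

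At sites of RB binding the WT list was the richer one, although it was the shorter one by far. Among V5 intervals found in one list and not in the other, 4.04% of the WT-only intervals lay at a C4-2 RB interval (468 of 11592, 95% Wilson interval 3.69 to 4.41). The same held for 0.414% of the K185R-only intervals (216 of 52174, 0.362 to 0.473). Over the whole lists the shares were 8.17% for WT and 1.76% for K185R. The WT-only share was thus 9.75 times the K185R-only share. In absolute numbers, too, the shorter WT list had more intervals at RB that the other list lacked, 468 against 216. Wilson intervals cover counting error over intervals only. Reads from PCR without molecular identifiers are not independent molecules, and intervals are not replicates.

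This ratio depended on how the lists were trimmed, but it stayed above 1 in each alternative run. It was 3.23 with the K185R list reduced to its strongest intervals, as many as the WT list holds (3.90% against 1.21%). With only intervals of −log10 q of at least 5 it was 5.07 (27.5% against 5.42%).

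The lists differed in depth as well as in length. The K185R list was 3.69 times as long, and its libraries were deeper, at 1.79 reads per kilobase of genome against 1.21 for WT, a ratio of 1.48. Its genome-wide expectation of reads at a summit, called the floor here, was 0.272 reads against 0.195. Intervals whose local background reached 10 floors or more are called high background. There were 601 such intervals in the WT list and 701 in the K185R list. Most other intervals were weak. The median summit rested on 5 reads in both lists, and 71.5% of WT and 65.8% of K185R intervals had 5 or fewer. What part depth had in the length of the lists was not tested.

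Most intervals were found in one list and not in the other. Of the WT intervals, 3507 overlapped a K185R interval by at least 1 base (23.2%, Wilson interval 22.6 to 23.9). Of the K185R intervals, also 3507 overlapped a WT interval (6.30%, 6.10 to 6.50). High-background intervals were shared much more often, 90.8% of them in the WT list and 74.3% in the K185R list. Without these, 20.4% of the remaining 14498 WT intervals and 5.43% of the remaining 54980 K185R intervals met an interval of the other list.

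Strong intervals were mostly shared and weak ones mostly not. Among low-background WT intervals, 16.6% of those with 3 or 4 summit reads (n = 5564) were in the K185R list. That share was 25.03% at 7 reads (n = 855), 66.2% at 10 to 14 reads (n = 260) and 96.9% at 20 reads or more (n = 65). In the K185R list the shares were 3.90% at 3 or 4 reads (n = 17807), 5.59% at 7 reads (n = 4918), 35.5% at 10 to 14 (n = 688), and 152 of the 160 intervals with 20 or more were shared. Between 10 and 14 reads most WT intervals had a K185R counterpart, while most K185R intervals had no WT counterpart. The deeper K185R libraries give more reads to a site of equal occupancy, so equal read numbers are not equal occupancy in the 2 lists.

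One-list intervals with more reads lay at RB more often in both lists, and from fewer reads on in WT. WT-only intervals lay at RB more often the more reads they had: 1.10% at 3 or 4 reads, 6.09% at 6, 23.9% at 8 or 9 and 60.2% at 10 to 14 (53 of 88). Above that, 3 of 3 with 15 to 19 reads and 2 of 2 with 20 or more lay at RB. For K185R-only intervals the shares were 0.0935%, 0.126%, 0.639% and 5.18% (23 of 444) in the same read classes. They rose steeply too, to 17 of 46 with 15 to 19 reads and 5 of 8 with 20 or more (62.5%, Wilson interval 30.6 to 86.3). At 10 reads or more, 58 of 93 WT-only intervals lay at C4-2 RB (62.4%, Wilson interval 52.2 to 71.5), against 45 of 498 K185R-only intervals (9.04%, 6.82 to 11.9).

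**Figure D1:**
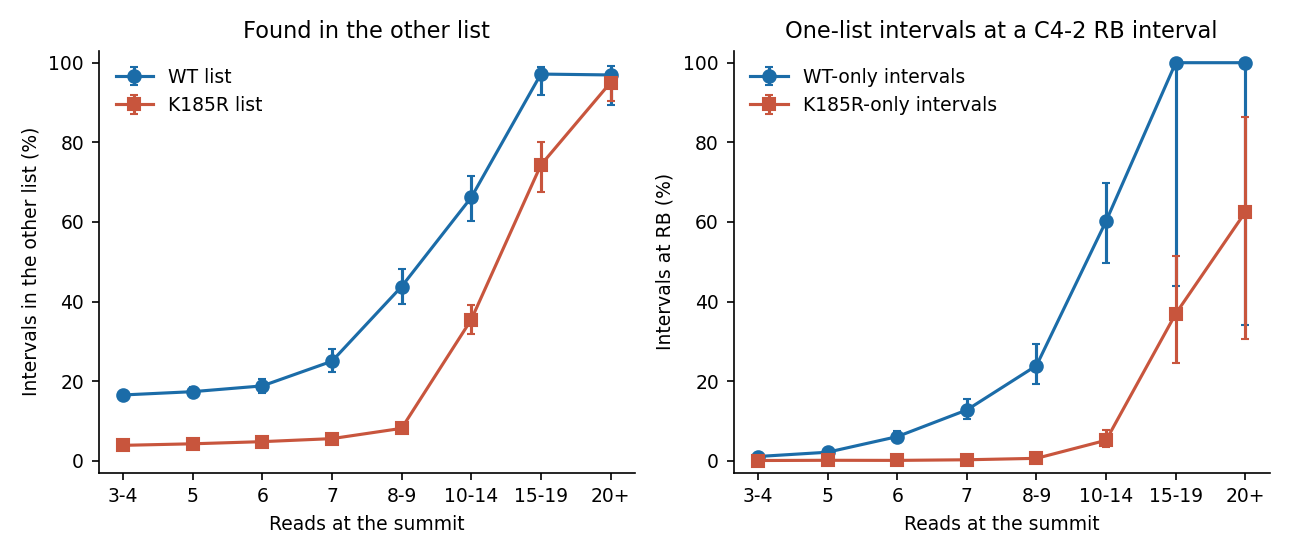
Low-background V5 intervals of the untreated WT (blue circles) and K185R (red squares) lists by reads at the summit (x axis, classes of reads), with 95% Wilson intervals as bars. Left, the percentage also found in the other list, which rises from 16.6% to 96.9% for WT and from 3.90% to 152 of 160 intervals for K185R. Right, the percentage of one-list intervals that lie at a C4-2 RB interval, 60.2% of WT-only against 5.18% of K185R-only intervals at 10 to 14 reads (the last 2 WT points rest on 3 and 2 intervals).

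The ratio was highest at RB sites that both cell lines have. RB sites were divided into those found in C4-2 and VCaP, in C4-2 only and in VCaP only. Of the low-background WT-only intervals, 2.67% (308 of 11537, Wilson interval 2.39 to 2.98) lay at RB of both lines. For K185R-only intervals this was 0.0654% (34 of 51994, 0.0468 to 0.0914), a 40.8-fold ratio. At RB of C4-2 only there were 139 WT-only and 93 K185R-only intervals, a 6.74-fold ratio of their shares, and at RB of VCaP only 89 and 45, an 8.91-fold ratio. The ratio at RB of both lines was 26.6 with the high-background intervals kept. With the K185R list reduced to the WT length it was 11.3, and at −log10 q of at least 5 it was 14.3.

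**Figure D2:**
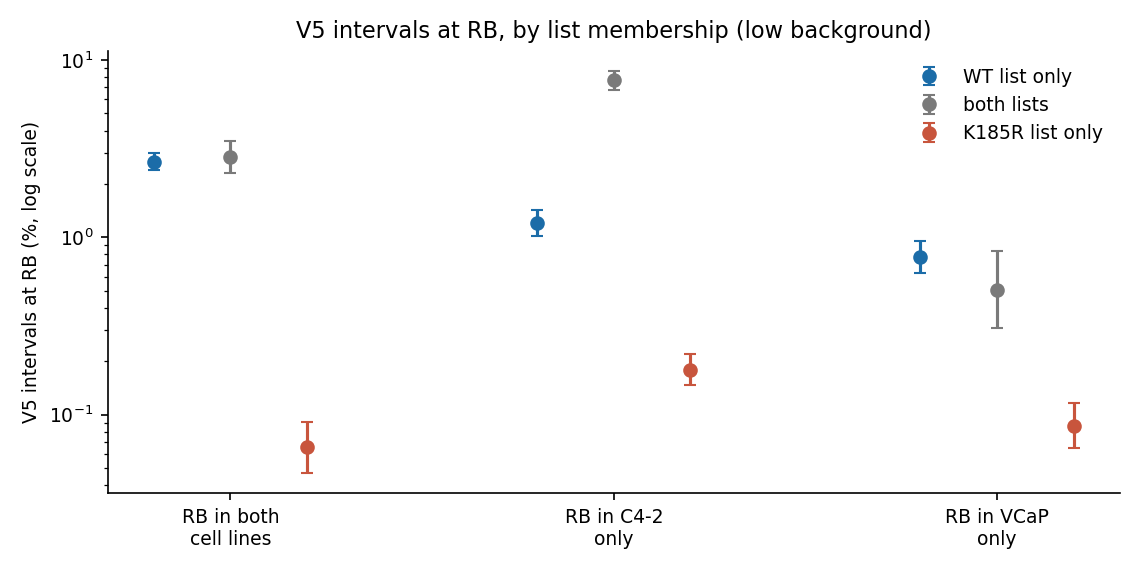
Percentage of low-background V5 intervals (y axis, log scale) that overlap an RB interval found in both cell lines, in C4-2 only or in VCaP only (x axis), with 95% Wilson intervals. At RB of both lines the intervals of the WT list only (blue, 2.67%) sit beside those of both lists (grey, 2.84%) and far above those of the K185R list only (red, 0.0654%), while at RB of C4-2 only the intervals of both lists (7.67%) are highest.

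Intervals of both V5 lists had another makeup. Of the 2961 low-background WT intervals with a K185R counterpart, 311 lay at C4-2 RB (10.5%, Wilson interval 9.45 to 11.7). Of these, 227 lay at RB of C4-2 only and 84 at RB of both lines. Among WT-only intervals the order was the opposite, with 139 at RB of C4-2 only and 308 at RB of both lines. Seen from the RB side of the WT list, 62.0% of the 366 V5 intervals at RB of C4-2 only were in the K185R list too (56.9 to 66.8). Of the 392 at RB of both lines, 21.4% were (17.7 to 25.8), close to the 19.3% of the 13636 intervals at no RB site. In the K185R list, 72.3% of the 336 intervals at RB of C4-2 only and 72.4% of the 123 at RB of both lines had a WT counterpart. At no RB site 4.85% of 54461 had one. The K185R list thus held few intervals at RB of both lines that WT lacked, whereas WT held many that K185R lacked.

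RB intervals were also taken as the starting point, without those of high background. Of the 5233 C4-2 RB intervals also found in VCaP, 449 had a V5 interval in WT and 173 in K185R. WT alone accounted for 314 of them, K185R alone for 38, and 135 were covered by each list. Of the 3476 C4-2 RB intervals absent from VCaP, 581 had one in WT and 571 in K185R, with 149 covered by WT alone, 139 by K185R alone and 432 by each list. The lists thus covered similar numbers of RB sites of C4-2 only, and WT covered more of those of both lines.

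The same was counted by the strength of RB. C4-2 RB intervals were put into 5 strength classes of equal size by −log10 q. At RB of both lines, WT covered 3.07% of the weakest class (27 of 879) and K185R 1.25% (11). In class 2 the shares were 4.52% and 0.821%, in class 3 4.95% and 1.71%, and in class 4 9.47% and 2.41%. In the strongest class they were 18.5% (216 of 1168, Wilson interval 16.4 to 20.8) and 9.25% (108, 7.72 to 11.0). WT was higher in all 5 classes, by ratios from 2.00 in the strongest to 5.50 in class 2, and the Wilson intervals overlapped in the weakest class alone. At RB of C4-2 only the lists ran together, with 4.40% and 3.24% in the weakest class and 55.4% and 54.7% in the strongest. There WT was higher in 4 classes and K185R in class 4 (18.1% against 21.4%), and the Wilson intervals overlapped in all 5.

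**Figure D3:**
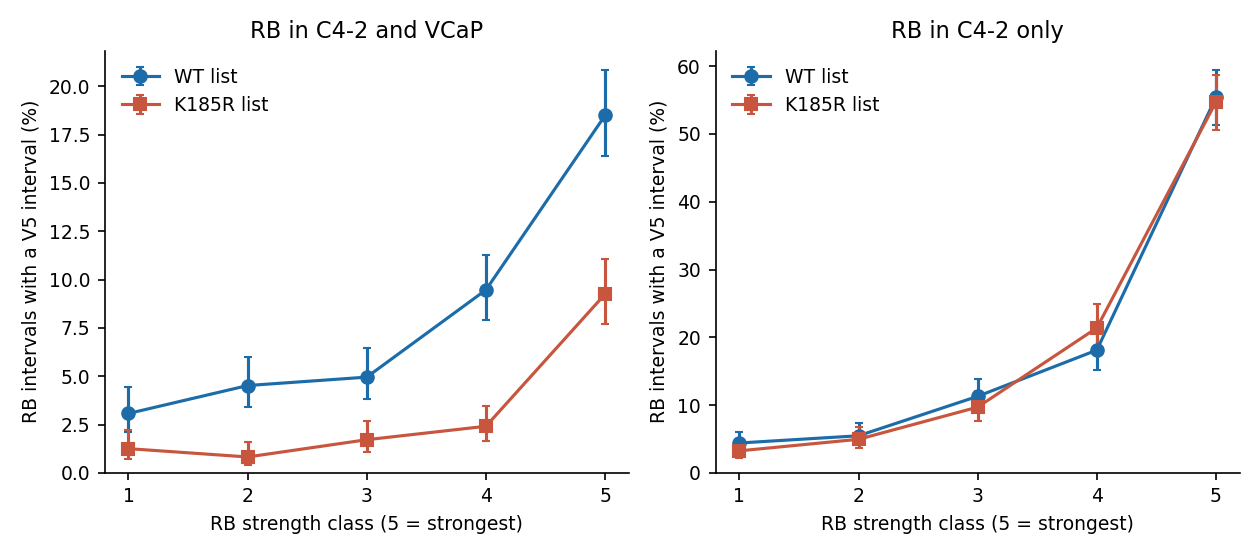
Percentage of low-background C4-2 RB intervals with a V5 interval (y axis; the scales of the panels differ) in 5 classes of RB strength (x axis), for the untreated WT (blue circles) and K185R (red squares) lists, with 95% Wilson intervals. Left, RB sites also found in VCaP, where WT lies above K185R in each class and reaches 18.5% against 9.25%. Right, RB sites of C4-2 only, where the curves overlap and end at 55.4% and 54.7%.

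The median strength of RB was close between sites covered by WT alone and by K185R alone. At RB of both lines the median RB fold enrichment in C4-2 was 6.85 at the 314 sites with a WT interval alone (quartiles 5.61 and 8.24). It was 6.60 at the 38 with a K185R interval alone (5.56 and 7.93), 8.16 at the 135 with both and 5.88 at the 4746 with neither. At RB of C4-2 only these medians were 5.90, 5.96, 7.89 and 5.33. Sites with V5 intervals in both lists had the highest median in each class. The summits of overlapping intervals lay close together. Overlap of narrow intervals largely brings this about by itself. Median widths were 161 bases for WT-only, 152 for K185R-only and 160 for C4-2 RB intervals. In 80.8% of 454 overlapping pairs of a WT-only and an RB interval the summits were within 100 bases, at a median distance of 41 bases, and in 80.8% of 130 pairs for K185R-only intervals, at 33 bases.

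VCaP RB intervals gave the same order. Of the 5009 low-background VCaP RB intervals also found in C4-2, 481 had a V5 interval in WT (9.60%) and 210 in K185R (4.19%). Of the 11807 that C4-2 lacked, 90 had one in WT (0.762%, Wilson interval 0.621 to 0.936) and 51 in K185R (0.432%, 0.329 to 0.567). In the weakest strength class of these, K185R had more (13 against 6 of 3065), and in the strongest WT had more (22 against 7 of 1151).

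The other 6 V5 lists come from libraries that took no part in forming the classes. They showed which intervals came back. Of the 447 low-background WT-only intervals at C4-2 RB, 62.9% were found in at least 1 of the 3 other WT lists (Wilson interval 58.3 to 67.2) and 67 of the 447 in at least 1 of the 3 other K185R lists. List by list, 21.9% were found in WT with doxycycline, 38.9% in WT with GSK2879552 and 46.5% in WT with both. In K185R the shares were 4.47%, 12.1% and 1.57% in the same order. The WT list with GSK2879552 is the shortest of the series, at 2805 intervals, and still held 174 of the 447, while the K185R doxycycline list, at 22328 intervals, held 20.

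K185R-only intervals at C4-2 RB came back in lists of both proteins. Of these 127 low-background intervals, 54.3% were found in at least 1 of the 3 other WT lists (Wilson interval 45.7 to 62.7) and 26.8% in at least 1 of the other K185R lists (19.8 to 35.1). They were found in WT with doxycycline at 37.0%, with GSK2879552 at 28.3% and with both at 25.2%. In K185R these shares were 15.7%, 20.5% and 6.30%. With high-background intervals kept (n = 216) the order for GSK2879552 alone turned, at 17.6% in WT and 20.4% in K185R, while 53.2% were in at least 1 other WT list and 31.9% in at least 1 other K185R list.

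Away from RB the WT-only and K185R-only classes came back at similar shares in the longer lists. Of WT-only intervals at no RB site (n = 11001), 17.0% were found in the WT doxycycline list, and of K185R-only intervals (n = 51822) 16.7%. In K185R with doxycycline the shares were 5.94% and 6.12%, and in K185R with GSK2879552 2.84% and 2.86%. Their Wilson intervals overlapped in 5 of the 6 lists. The exception was the WT list with both treatments, which held 1.25% of WT-only (1.06 to 1.48) and 0.755% of K185R-only intervals (0.684 to 0.833). Shares also leaned to WT-only in WT with GSK2879552 (0.682% against 0.498%) and in K185R with both treatments (1.15% against 0.926%). Of the K185R-only intervals at no RB site, 76.0% were in none of the other 6 V5 lists, and of the WT-only ones 75.4%. The longest list, WT with doxycycline at 64025 intervals, held the largest share of both classes.

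**Figure D4:**
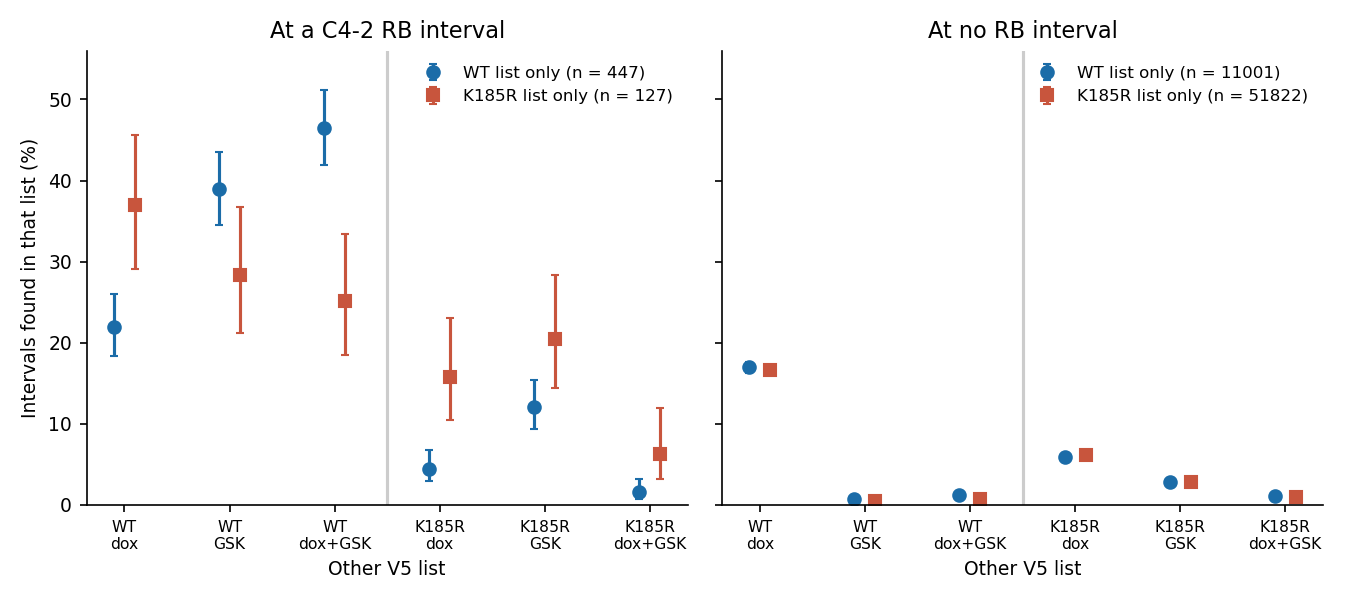
Percentage of low-background intervals of the untreated WT list only (blue circles) and the untreated K185R list only (red squares) that are found in each of the other 6 V5 lists (x axis; dox, doxycycline; GSK, GSK2879552), with 95% Wilson intervals. Left, intervals at a C4-2 RB interval, where WT-only intervals reach 46.5% in a WT list and at most 12.1% in a K185R list. Right, intervals at no RB site, where the points of the 2 classes lie together at 17.0% and 16.7% in the longest list.

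A small group of sites had a V5 interval in all 4 WT lists and in none of the 4 K185R lists. There were 33 such sites on 17 chromosomes, none of high background, with 4 to 13 summit reads in untreated WT (median 7). Of the 33, 28 lay at C4-2 RB (84.8%, Wilson interval 69.1 to 93.3), 19 at VCaP RB and 2 at neither. WT intervals shared with untreated K185R and found in all 6 other V5 lists were also mostly at C4-2 RB, 354 of 421, or 93 of 143 of low background, so a high share at RB was not particular to the 33. The mirror group, in all 4 K185R lists and no WT list, held 1 site, at no RB interval. The 3 other lists that a site had to be in held 64025, 2805 and 3874 intervals for WT and 22328, 9899 and 3498 for K185R. With at least 50% of both intervals required to overlap, the counts were 24 and 1, and with −log10 q of at least 5 in the untreated lists 13 and 2.

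The 5 strongest of these 33 sites, chosen after their values were seen, are given one by one. All positions are on build hg19. On chr22:42915761-42916005 the V5 interval had 13 reads in untreated WT, and 8 in WT given doxycycline, 15 given GSK2879552 and 10 given both, with folds of 9.65, 5.48, 11.2 and 7.17. RB was there in C4-2 with a fold of 5.12 and in VCaP with 6.71. On chr7:55955290-55955547 the WT reads were 13, 7, 12 and 11 in the same order, and RB folds were 6.18 and 4.74.

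A pair of the 5 sites had stronger RB in C4-2. On chr1:155214545-155214807 the WT reads were 12, 9, 8 and 10, at an RB fold of 21.1 with 99 reads in C4-2 and of 24.1 with 97 reads in VCaP. On chr8:67525479-67525782 the WT reads were 11, 10, 19 and 11, at RB folds of 9.06 and 6.30. The remaining one, chr12:6716686-6716880, had 11, 4, 9 and 14 reads in WT and no RB interval in either line. The doxycycline list, the longest of WT, had the lowest reads at 4 of these 5 sites, the exception being chromosome 1.

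The strongest low-background WT-only intervals, named by −log10 q, were nearly all RB sites. On chr14:53196732-53196953 the WT list had 20 reads and a fold of 12.4, against a background 3.55 times the floor. The 3 other WT lists had 15 reads with doxycycline, 19 with GSK2879552 and 18 with both. Among K185R lists only the one with GSK2879552 had an interval there, with 12 reads. RB had folds of 6.44 in C4-2 and 6.05 in VCaP.

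On chr6:33359418-33359653 the pattern was the same, with 20 reads untreated and 10, 17 and 22 in the treated WT lists. Among K185R lists the one with GSK2879552 had an interval, of 8 reads, and RB folds were 6.32 and 7.97. Scaled by the ratio of the floors, 20 reads in WT correspond to 27.9 in the K185R libraries. At the same relative background, 6 reads at a summit would have reached the lowest −log10 p of the K185R list. This holds only if the enriched stretch was wide enough. The site was picked for its strength in WT, and why the untreated K185R list lacked it was not tested.

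The next 3 had 14, 15 and 13 reads in WT. The interval on chr2:135676248-135676468 recurred in the WT list with both treatments (7 reads) and had RB in VCaP (fold 4.94) but not in C4-2. On chr14:64319552-64319800 it recurred in 2 other WT lists (8 and 11 reads) and, with 5 reads, in K185R with doxycycline, at RB folds of 9.03 and 6.82. On chr5:34915705-34915950 it recurred in WT with GSK2879552 (9 reads) and in 2 K185R lists (7 and 4 reads), at RB folds of 9.52 and 8.74. So 4 of the 5 lay at C4-2 RB and 5 of 5 at VCaP RB. All but the chromosome 2 site had an interval in a treated K185R list, and none had an interval in all 3 of these lists.

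Of the 5 low-background K185R-only intervals of highest −log10 q, 1 lay at C4-2 RB. Ranking by reads gives another picture, since 5 of the 8 with 20 or more summit reads lay at C4-2 RB. On chr17:21906667-21906969 the K185R list had 30 reads and a fold of 8.33 on a background 9.99 times the floor, just under the limit of high background. WT had intervals there with doxycycline (15 reads) and with both treatments (17), and K185R with doxycycline (12). On chr7:2852141-2852430 there were 17 reads and a fold of 11.99 untreated, and 11 and 3 reads in K185R with GSK2879552 and with doxycycline. WT had 7 reads there with doxycycline.

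The next pair had few intervals in other lists. On chr10:76640453-76640704, with 18 reads and a fold of 11.5, the one other list with an interval was WT with doxycycline (11 reads). On chr19:49817100-49817276, also with 18 reads and a fold of 11.2, it was WT with doxycycline (11 reads) and K185R with doxycycline (7). The last of the 5, on the Y chromosome at 13676539 to 13676791, had 28 reads at a background 9.71 times the floor and was the one at an RB interval (C4-2, fold 7.11). It recurred with 20 reads in K185R with doxycycline, 19 in K185R with GSK2879552 and 20 in WT with doxycycline. None of the 5 lay at VCaP RB. Each of the 5 had an interval in a treated WT list, though none had an interval in every treated WT list.

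Intervals of both lists had similar fold enrichment in WT and K185R, and fewer reads relative to the floor in K185R. Over 3523 overlapping pairs the median difference in log2 fold enrichment, K185R minus WT, was −0.01 (quartiles −0.17 and 0.21), with K185R higher in 48.9%. Fold enrichment is the authors' ratio, which adds 1 read to both terms and so grows with depth at weak sites. With summit reads divided by the floor of their list in place of the fold, the median log2 difference was −0.31 over all pairs. It was −0.48 for low-background pairs at no RB site, −0.67 at RB of both lines and −0.26 at RB of C4-2 only, all lower in K185R. Equal reads in both lists give −0.48 from the 2 floors alone, and the no-RB pairs had medians of 5 and 5 reads. Their −0.48 is thus the value that the floors give, and their median reads did not differ. The part of depth in it was not tested. No-RB pairs with at least 15 reads in both lists (n = 31) had a median of −0.22. Pairs at high background (n = 558) had a median difference in log2 fold of 0.01 and a median summit distance of 7 bases. Their median log2 difference in reads over the floor was −0.27, close to that of low-background pairs at RB of C4-2 only. Low-background pairs at no RB site (n = 2639) had a median difference in log2 fold of −0.02 and a summit distance of 48 bases.

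Low-background pairs at RB of both lines leaned to WT on both scales. Of these 86 pairs, WT had the higher fold in 58 (67.4%), and the median difference was −0.18 (quartiles −0.49 and 0.09). Median summit reads were 9 in WT and 7 in K185R, although the K185R libraries were deeper. The 225 pairs at RB of C4-2 only had medians of 14 and 17 reads, and K185R had the higher fold in 119 (52.9%), with a median difference in log2 fold of 0.05, opposite in sign to that of reads over the floor. In both groups 0 lay between the quartiles. Among pairs with 15 reads or more in both lists, 14 lay at RB of both lines and WT had the higher fold in 5 of them. The lean to WT in fold was not seen among these 14 pairs, whose median difference was 0.14 in log2 fold and −0.17 in log2 reads over the floor.

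**Figure D5:**
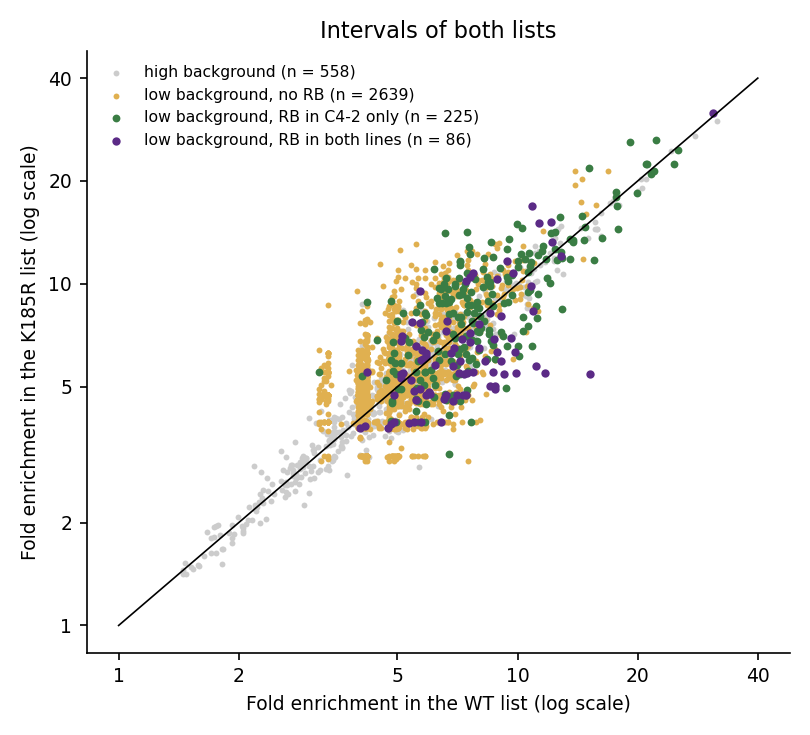
Fold enrichment of overlapping interval pairs in the WT list (x axis, log scale) and the K185R list (y axis, log scale), with the line of equal values; 15 low-background pairs at RB of VCaP only are not drawn. Points at RB of both lines (purple, 86 pairs) lie below the line in 58 cases, and those at RB of C4-2 only (green, 225 pairs) in 106.

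The strongest low-background intervals of both lists were present almost everywhere. On chr9:44070579-44070896 the fold was 30.9 in WT (88 reads) and 31.6 in K185R (98 reads), all 10 lists had an interval, and the C4-2 RB fold was 35.8. On chr7:61055538-61055929 the folds were 25.2 and 24.7, and on chr9:42415916-42416209 24.6 and 22.4. On chr9:70327351-70327640 they were 22.0 and 21.5, and on chr9:42818982-42819282 21.6 and 21.0. These 4 had an interval in every list except VCaP RB, with C4-2 RB folds from 17.1 to 30.8. Of these 5 sites, 4 lay on chromosome 9. Their local background was raised, at 5.28 to 9.91 times the floor in WT and 4.85 to 7.92 times in K185R. In WT the first of them (9.66) and the chromosome 7 site (9.91) were just under the limit of high background. Whether such regions give signal with any antibody was not tested.

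Both lists were spread over the chromosomes in nearly the same proportions, except for the Y chromosome. It held 0.788% of the WT list and 0.381% of the K185R list, a log2 difference of −1.05, K185R minus WT. In counts it had 119 WT and 212 K185R intervals, and 102 of the WT ones were in the K185R list. Of high background there were 55 WT and 68 K185R intervals on it. Without the Y chromosome, the share of a list on a chromosome differed at most by −0.25 on the log2 scale, K185R minus WT, on chromosome 21, and by 0.14 on chromosome 6. In blocks of 10 Mb with at least 20 low-background WT intervals, 285 of 291 differed by no more than 1.5-fold. The block of chromosome 6 from 130 to 140 Mb stood highest for K185R, with 234 intervals against 34 in WT, 0.86 above the genome's average on the log2 scale. Next came chromosome 2 from 140 to 150 Mb, with 132 against 22 (0.66). The other 4 blocks beyond 1.5-fold held relatively more WT intervals: 50 to 60 Mb (−1.54) and 10 to 20 Mb (−0.88) of the Y chromosome, 140 to 150 Mb of chromosome 8 (−0.81) and 30 to 40 Mb of chromosome 16 (−0.66).

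The difference at RB was likewise found across the genome. WT-only intervals lay at C4-2 RB more often than K185R-only intervals on 23 of 23 chromosomes, the Y chromosome left aside. The WT-only share ran from 1.34% on chromosome 21 to 7.44% on chromosome 16, and the K185R-only share from 0.0650% on chromosome 13 to 1.04% on chromosome 19. On chromosome 21, where RB intervals were few (109), the counts were 2 of 149 and 5 of 635.

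Distances between neighbours followed the length of the lists. The nearest K185R summit lay at a median of 16959 bases from a low-background WT-only summit, and the nearest WT summit at 64387 bases from a K185R-only one. Only 3.67% and 0.929% of these intervals had a summit of the other list within 1 kb. To the nearest C4-2 RB summit the medians were 150312 and 161180 bases. Within 1 kb of an RB summit lay 4.50% of WT-only and 0.527% of K185R-only intervals, and within 50 kb 26.1% and 23.1%. The shares within 50 kb include those within 1 kb. The classes thus differed right at RB summits, with no added excess of WT-only intervals between 1 and 50 kb.

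Genes near these intervals were not analysed here, since the gene positions at hand are on GRCh38 and the intervals on hg19.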

How the data were processed

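The members and lists were chosen with earlier results of these data known. MACS2 2.1.0, BWA 0.7.9a, SAMtools 1.2, FastQC 0.11.9 and build hg19 appear in the submitters' processing notes. Whether a control library was used or duplicates were removed is not given in the sources used here. Each group has 1 deposited interval list, and V5 intervals carry the word merged in their names. Each deposited interval carries the authors' fold enrichment (a linear ratio to the local background) and a p-value and q-value as −log10. Intervals were ranked by −log10 q only within a list. The cut of −log10 q of at least 5 was the same for both lists, and its outcomes were compared between them.

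Summit reads and local background were solved from the deposited fold and −log10 p. This uses the way MACS2 computes them, with 1 read added above and below in the fold and a Poisson p. The recomputed −log10 p differed from the deposited one by at most 0.000117 in the WT and K185R untreated lists. The floor is the lowest background value that 5 or more intervals have in common, and the floor divided by the smallest interval width gives the depth. Intervals overlapping by 1 base counted as shared. Shares have 95% Wilson intervals (scipy 1.17.1, Python 3.11.15). Overlap search and solver were tested on simulated data. No p-value was computed, since each group has 1 list.

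Named intervals are the 5 of highest −log10 q and low background in each class. Alternatives were −log10 q of at least 5, no high-background intervals, at least 8 summit reads, equal list lengths, covered bases, overlap of 50% of both intervals, summits within 100 bases, and an RB list without high background, which was added after seeing the data. Promoter counts and gene lists were planned but not run, for want of gene positions on hg19.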

Additional observations from a re-analysis of the deposited data

How the results depend on the processing

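No paired analysis was possible because the libraries of a group are joined in 1 list, which also kept any library from being left out. Promoter counts were not run. Of 49 alternative values, 10 stayed within the counting error (or within 1.5 times, for the length ratio) and 39 moved. In the settings run, the K185R list stayed the longer one, and the WT-only shares at RB and in another list of the same protein stayed above the K185R-only ones. The recurrence shares have unlike targets, since the treated WT and K185R lists differ in length. With the lists as deposited, 20.3% of WT-only and 17.7% of K185R-only intervals were in a treated WT list. In a treated K185R list these shares were 9.72% and 9.44%. With equal list lengths the 2 shares of shared intervals are close by arithmetic, since nearly each overlap joins 1 interval of each list. Coverage of RB sites by strength and the folds of shared pairs were not recomputed under these settings.

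Limited to a −log10 q of 5 or more, the K185R list was 2.41 times as long. The shared part was then 59.2% of WT and 24.5% of K185R. RB sites made up 27.5% of WT-only, 5.42% of K185R-only and 68.7% of shared intervals. Recurrence in another list of the same protein was 52.7% for WT-only and 26.2% for K185R-only intervals. With at least 8 summit reads the values were 66.1% and 24.5% shared, 35.1%, 5.31% and 66.0% at RB, and 53.9% and 21.5% recurring. Without high background they were 20.4% and 5.38% shared, 0.288% of K185R-only and 10.4% of shared intervals at RB. With the K185R list at the WT length, 12.4% and 12.4% were shared, 1.21% of K185R-only and 38.2% of shared intervals lay at RB, and 21.8% and 12.8% recurred. With 50% of both intervals overlapping the values were 18.3% and 4.96% shared, 2.73%, 0.300% and 20.04% at RB, and 16.02% and 7.17% recurring. With summits within 100 bases they were 19.3% and 5.25% shared, 3.37% of WT-only intervals at RB, and 17.1% and 7.64% recurring. With the RB list freed of high background, RB sites made up 0.320% of K185R-only and 15.8% of shared intervals.

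The ratio of WT-only to K185R-only shares at RB ranged from 3.23 to 13.5 over these settings, and that at RB of both lines from 11.3 to 38.6. The 38.6 drops high background before the lists are matched, and the 40.8 reported for low background drops it afterwards. Sites in every WT list and no K185R list numbered 13 to 42, and the mirror sites 1 to 4. Depth limits the weak intervals most: with a median of 5 summit reads, a missing interval does not show a missing protein.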
